A study of Mus musculus with 5 samples.

Results

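Cytosolic ribosomal protein genes encode the proteins that, together with ribosomal RNA, form the large (60S) and small (40S) subunits of the ribosomes that work outside mitochondria. They were selected by name from the mouse annotation GENCODE M21: protein-coding genes whose symbol is Rpl or Rps followed by a number, with an optional letter or paralog suffix, together with Rplp0, Rplp1, Rplp2 and Rpsa. The annotation held 84 such genes, and 81 of them were among the 12934 genes with counts. All 81 passed the filter on low counts and were among the 12483 genes tested, 49 with a 60S name and 32 with a 40S name. The 3 genes not listed were Rpl10l, Rpl39l and Rpl3l, paralogs known mainly from testis or muscle.

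Ribosomal protein mRNAs are among the most abundant mRNAs of a growing cell, since each ribosome needs a copy of nearly every protein. Most of them belong to the TOP mRNAs, whose 5′ end starts with an uninterrupted run of pyrimidines (C or U), and their translation is regulated together through mTOR and the RNA-binding protein LARP1. Many ribosomal protein genes also carry small nucleolar RNAs (snoRNAs) in their introns, which guide the modification of ribosomal RNA.

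EpH4 cells are an established mouse mammary epithelial line of BALB/c background. All the cells analysed here expressed Cas9 from a lentivirus selected with blasticidin, and they were then transduced with an sgRNA lentivirus selected with puromycin. The comparison was between a control sgRNA (sgControl, 3 libraries) and sgRNA against Mef2d (sgMef2d, 2 libraries), a gene that encodes a transcription factor of the MEF2 family. The labels do not say which of the sgRNAs used against Mef2d each sgMef2d library carried, and the methods speak of stable clones without their number. Nor do they say whether replicates came from separate cultures, so p-values measure only the spread between these libraries, which may be technical.

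The libraries held between 13601145 and 20498563 counts, the largest being sgControl replicate 1. Mef2d itself was measured at 64.3, 76.9 and 71.5 CPM (counts scaled to a fixed library total, with TMM factors) in the sgControl libraries and at 64.2 and 65.8 CPM in the sgMef2d libraries, an mRNA difference that did not pass the threshold (adjusted p = 0.400 by edgeR), and the mRNA level alone does not show whether the gene was edited. Of 8 epithelial markers, 7 were listed, with a summed level of 4035 to 4230 CPM in sgControl and 3820 to 3972 CPM in sgMef2d libraries. Of 8 fibroblast markers, 6 were listed, at 644 to 770 CPM in sum in sgControl and 607 to 647 CPM in sgMef2d libraries, 2 of 7 immune markers reached 3.01 to 4.12 CPM, 1 of 4 adipocyte markers (Fabp4) was at 3.80, 2.98 and 2.42 CPM in sgControl and at 1.18 and 1.48 CPM in sgMef2d libraries, and 0 of 4 endothelial markers were listed. One library stood apart for the ribosomal protein genes: sgControl replicate 1 differed from sgControl replicates 2 and 3 more than those differed from each other, so values with and without it stand side by side. Past the threshold, 1 epithelial marker was higher and 1 lower in sgMef2d cells, as were 2 and 1 fibroblast markers, while Fabp4 was lower (log2 fold change -1.25, adjusted p = 0.0231 by edgeR), and their part in the results was not tested.

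The ribosomal protein genes took a larger share of all counts in the sgMef2d libraries than in 2 of the 3 sgControl libraries. They held 6.63%, 5.88% and 5.58% of the counts in sgControl replicates 1, 2 and 3, and 6.59% and 6.56% in sgMef2d replicates 1 and 2. The mean share was 6.03% ± 0.541 (SD, n = 3) in sgControl and 6.57% ± 0.0219 (SD, n = 2) in sgMef2d cells. The groups overlapped, because sgControl replicate 1 lay above both sgMef2d libraries. The 60S genes held 4.03%, 3.53% and 3.37% of the sgControl counts and 3.97% and 3.95% of the sgMef2d counts. The 40S genes held 2.60%, 2.35% and 2.21% in sgControl and 2.62% and 2.61% in sgMef2d cells, so both subunits followed nearly the same order of libraries, apart from both sgMef2d libraries lying just above sgControl replicate 1 for the 40S genes. In a bulk sample such a share is relative to all other mRNA, and fewer cells of a type and less RNA per cell cannot be told apart.

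**Figure D1:**
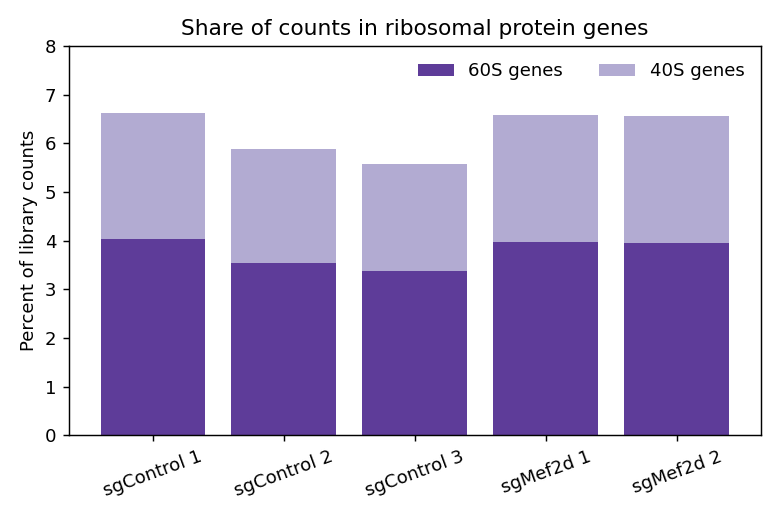
Share of library counts held by ribosomal protein genes. Each stacked bar is 1 library (x axis) and its height is the percent of that library's counts (y axis) in the 49 60S genes (dark) and the 32 40S genes (light). The bars of sgControl replicate 1 (6.63%) and both sgMef2d libraries (6.59% and 6.56%) stand above those of sgControl replicates 2 (5.88%) and 3 (5.58%).

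Gene by gene, 14 of the 81 ribosomal protein mRNAs passed the threshold, all of them higher in sgMef2d than in sgControl cells, and 67 did not pass. Over all genes tested, 3.67% were higher and 4.28% lower past the threshold (7.95% in either direction), whereas 17.3% of the ribosomal protein genes were higher and 0 were lower by the quasi-likelihood test of edgeR (Benjamini-Hochberg adjusted p). At an unadjusted p below 0.05, 29 ribosomal protein genes were higher (11.2% of all genes tested) and 0 lower (12%). DESeq2 called 13 higher and limma-voom 14 (2.98% and 3.61% of all genes tested), and both called 0 lower (3.46% and 3.93% of all genes tested). The log2 fold change, sgMef2d over sgControl, was above 0 for 78 of the 81 genes, against 50.7% of all genes tested, and its median was 0.13 against 0.0031 over all genes tested. Without sgControl replicate 3 it was above 0 for 64 of the 81 genes (50% of all genes tested), with a median of 0.068. Both sgMef2d libraries lay above all 3 sgControl libraries for 34 ribosomal protein genes (20.6% of all genes tested), and both lay below all 3 for 0 (20.5% of all genes tested). Of the 49 60S genes 7 passed the threshold, and of the 32 40S genes 7 passed it. Their median log2 fold changes were 0.11 (60S) and 0.16 (40S). The 81 genes are not independent replicates, since they were measured in the same 5 libraries.

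**Figure D2:**
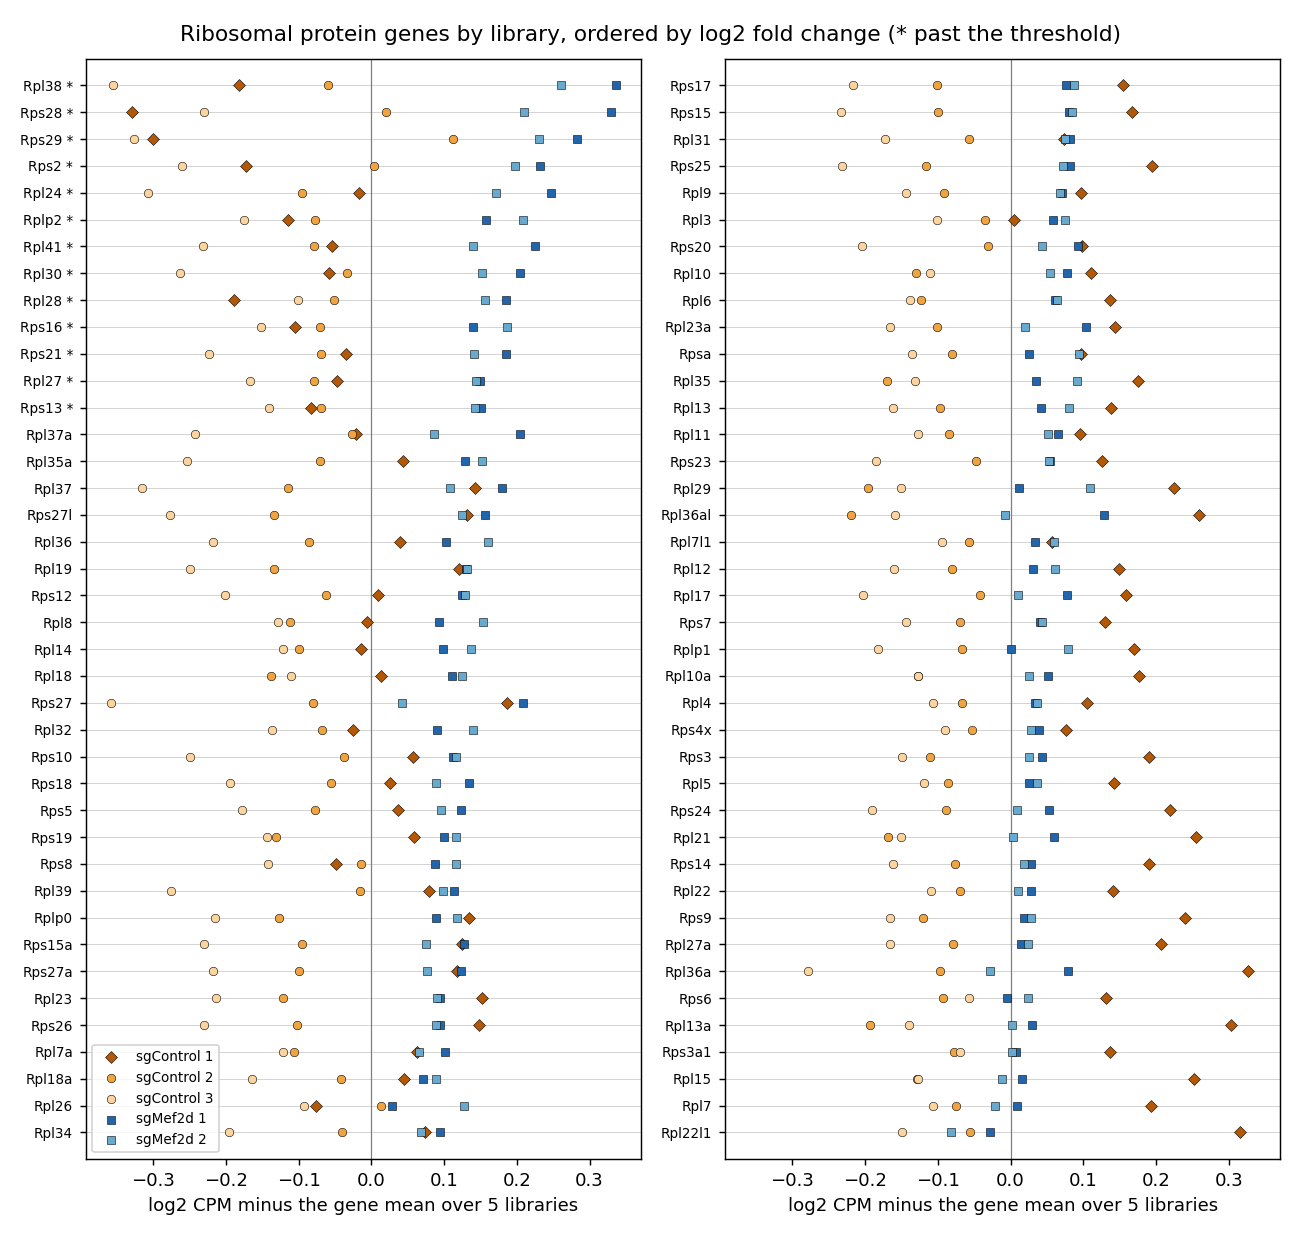
Ribosomal protein genes in each library (80 genes plotted). Each row is 1 gene, ordered by log2 fold change from the top left to the bottom right, and the x axis is the log2 CPM of a library minus the mean of the gene over the 5 libraries; an asterisk marks the 13 plotted genes past the threshold. In the top 13 rows all 3 sgControl libraries lie to the left of both sgMef2d libraries, while further down sgControl replicate 1 (diamonds) moves to the right of them.

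Rpl38 had the largest change. It encodes a 60S protein known in mice for its role in patterning the axial skeleton, and it was measured at 355, 386 and 314 CPM in the sgControl libraries and at 508 and 482 CPM in the sgMef2d libraries. The groups did not overlap. The log2 fold change was 0.49 ± 0.078 (SE), a 1.41-fold higher level, with an adjusted p of 0.00312 by edgeR. Without sgMef2d replicate 2 the adjusted p of Rpl38 was 0.0428, and without replicate 1 it was 0.0751 by edgeR, with log2 fold changes of 0.53 and 0.45. With each library's trend in transcript length and GC content removed, the log2 fold change of Rpl38 was 0.32, still past the threshold.

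The next genes in size were a group of 40S genes. Rps28, whose protein sits near the site where mRNA leaves the small subunit, was at 325, 414 and 348 CPM in sgControl and at 513 and 473 CPM in sgMef2d cells. Its log2 fold change was 0.44 ± 0.090 (SE), although its gene overlaps Kank3 on the other strand and the strand setting of the counting is not stated. Rps29, a small zinc-binding protein of the 40S head, was at 280, 373 and 276 CPM against 420 and 405 CPM. Here the sgControl libraries were spread widely, with replicate 2 well above the other two, and the log2 fold change of 0.41 ± 0.11 (SE) had an adjusted p of 0.0407 by edgeR and of 0.235 by DESeq2. Rps2, which lies at the site where mRNA enters the 40S subunit, was at 677, 765 and 638 CPM against 897 and 876 CPM, a log2 fold change of 0.35 ± 0.075 (SE).

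In Rps16 and Rps13 the sgControl libraries lay close together. Rps16, whose tail reaches towards the tRNA in the P site, was at 612, 627 and 593 CPM against 725 and 749 CPM, a log2 fold change of 0.27 ± 0.057 (SE). Rps13, which takes part in a bridge between the subunits, was at 428, 432 and 411 CPM against 503 and 500 CPM, a log2 fold change of 0.24 ± 0.055 (SE). In Rps16 and Rps13 the distance between the groups exceeded the whole range within sgControl. Rps21, another 40S protein, was at 673, 658 and 591 CPM against 784 and 761 CPM, with a log2 fold change of 0.27 ± 0.067 (SE).

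Of the 60S genes, Rpl24 followed Rpl38. Rpl24, whose mutation gives the belly spot and tail mouse, was at 198, 188 and 162 CPM in sgControl and at 238 and 226 CPM in sgMef2d libraries, a log2 fold change of 0.34 ± 0.079 (SE). Rplp2 encodes the acidic stalk protein P2, which with P1 and P0 forms the stalk that recruits elongation factors. It was at 572, 587 and 549 CPM against 691 and 716 CPM, a log2 fold change of 0.30 ± 0.058 (SE) with an adjusted p of 0.00801 by edgeR. The other stalk genes did not pass the threshold: Rplp0 was at 1029, 859 and 808 CPM against 997 and 1018 CPM (log2 fold change 0.16 ± 0.089 SE, adjusted p = 0.304), and Rplp1 at 1555, 1321 and 1219 CPM against 1384 and 1461 CPM (0.059 ± 0.091 SE, adjusted p = 0.751). In Rplp0 and Rplp1 sgControl replicate 1 was the highest of the 5 libraries, whereas in Rplp2 it lay between the other sgControl libraries. Whether the stalk genes differed from each other in their change was not tested.

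Rpl41, which encodes one of the smallest known proteins, had the highest level per length of the 14 (909 CPM per kilobase of exon) and was at 1016, 998 and 898 CPM in sgControl and 1233 and 1162 CPM in sgMef2d cells, a log2 fold change of 0.30 ± 0.068 (SE). Rpl30, whose yeast counterpart binds its own transcript, was at 207, 211 and 180 CPM against 249 and 240 CPM, a log2 fold change of 0.29 ± 0.072 (SE). Rpl28, a 60S protein that bakers' yeast lacks, was at 520, 571 and 552 CPM against 673 and 660 CPM, a log2 fold change of 0.28 ± 0.060 (SE). These 3 genes had no overlap between groups, and Rpl30 and Rpl28 overlap the listed genes D730044K07Rik and Ube2s on the other strand. Rpl27 closed the list at 714, 698 and 657 CPM against 818 and 815 CPM, with a log2 fold change of 0.24 ± 0.059 (SE). Over the 14 genes the adjusted p by edgeR ranged from 0.00312 to 0.0407. All but 1 of the calls needed both sgMef2d libraries, and that of Rpl38 needed replicate 1. Without sgMef2d replicate 1, which leaves 1 sgMef2d library assumed to vary like the others, 0 of 81 passed by edgeR (18 at an unadjusted p below 0.05), where 1.06% of all genes tested were higher (6.3% unadjusted). Without replicate 2, Rpl38 alone passed (15 at an unadjusted p below 0.05), where 1.07% were higher (5.57% unadjusted). The log2 fold changes of the lost calls were 84.1% to 107% of those with all 5 libraries in the first case and 89.9% to 113% in the second. Without sgControl replicate 2 or 3, 8 genes passed in each case, where 2.4% and 3.14% of all genes tested were higher, and the 6 calls lost had 104% to 107% (without replicate 2) or 76.7% to 91.3% (without replicate 3) of their log2 fold change.

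**Figure D3:**
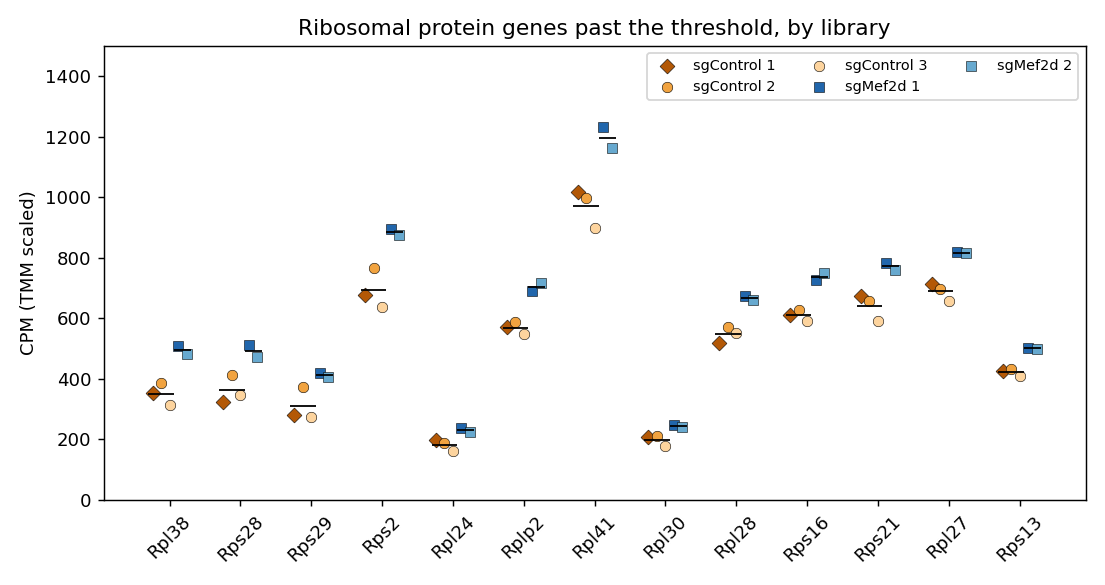
Ribosomal protein genes past the threshold (13 plotted). The y axis is TMM-scaled CPM, each symbol is 1 library and each horizontal line the mean of a group (3 sgControl or 2 sgMef2d libraries). For Rpl38 the sgControl symbols lie between 314 and 386 CPM and the sgMef2d symbols at 508 and 482 CPM, and in all 13 genes both squares lie above the 3 sgControl symbols.

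The start regions of the genes were compared because ribosomal protein mRNAs share a pyrimidine run at their 5′ end. RefSeq promoter sequences (build GRCm38.p6) matched 61 of the 81 genes, with 72 annotated starts. Each window below runs 5′ to 3′ along the gene's own strand from 60 bases before the annotated start to 20 bases after it, and capitals mark the longest uninterrupted run of C and T. Rpl38 (chr11:114668520-114668599, plus strand), Rplp2 (chr7:141447591-141447670, plus strand) and Rpl28 (chr7:4792905-4792984, plus strand) are shown as genes past the threshold whose run holds the annotated start.
Rpl38: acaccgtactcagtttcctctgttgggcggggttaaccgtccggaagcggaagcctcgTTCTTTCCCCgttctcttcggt
Rplp2: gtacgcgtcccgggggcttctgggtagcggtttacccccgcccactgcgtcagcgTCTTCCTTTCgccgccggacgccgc
Rpl28: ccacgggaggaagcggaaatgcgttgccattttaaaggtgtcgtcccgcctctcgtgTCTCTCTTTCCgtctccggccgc
Rps2 (chr17:24720003-24720082, plus strand) and Rps28 (chr17:33824543-33824622, minus strand) also passed the threshold, with longest runs of 6 and 5 bases that do not hold the annotated start.
Rps2: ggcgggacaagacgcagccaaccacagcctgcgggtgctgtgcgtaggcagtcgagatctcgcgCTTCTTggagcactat
Rps28: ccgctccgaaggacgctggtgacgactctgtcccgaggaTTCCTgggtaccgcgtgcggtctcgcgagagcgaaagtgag
Rps27 (chr3:90213629-90213708, minus strand), Rpl15 (chr14:18270967-18271046, minus strand) and Rpl22l1 (chr3:28805448-28805527, plus strand) did not pass it and have runs of 9, 17 and 10 bases. The run of Rpl22l1 does not hold the annotated start.
Rps27: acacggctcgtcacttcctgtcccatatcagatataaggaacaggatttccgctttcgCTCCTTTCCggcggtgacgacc
Rpl15: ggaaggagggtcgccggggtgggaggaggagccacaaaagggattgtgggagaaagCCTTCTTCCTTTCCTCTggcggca
Rpl22l1: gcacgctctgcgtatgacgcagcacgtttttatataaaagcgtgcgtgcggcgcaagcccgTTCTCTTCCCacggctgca
Genes past the threshold thus had both long and short runs. So did the genes not past it, where Rps4x and Rpl10 had longest runs of 5 and 6 bases. A run of at least 8 C or T that holds the annotated start was present at 23.6% of the 72 ribosomal protein starts and at 3.9% of all 32851 promoters, and a run of at least 8 anywhere in the window at 58.3% and 31.2%. The annotated start need not be the start used in EpH4 cells.

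Other short motifs were counted in the same promoters. The letters CCGGAAG, a core bound by ETS family factors, were searched on both strands from 250 bases before to 50 after the start and found at 36.1% of the ribosomal protein starts, against 8.9% of all promoters. AAGATGG, the core of the YY1 motif, was found at 16.7% against 6.3% in the same search. In the window shown above and on the gene's strand only, CTTTCC, which overlaps the C and T runs, was found at 18.1% against 3.8%, and TATAAA at 2.8% against 3.2%. A match is a description of letters and not of a bound site. Rpl38, Rplp2 and Rps2 held CCGGAAG, whereas Rpl28 and Rps28 did not.

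The number of ribosomal protein genes past the threshold depended on sgControl replicate 1. This library was above both other sgControl libraries for 69 of the 81 genes (39% of all genes tested), and above all 4 other libraries for 40 (23.4% of all genes tested). Rpl36a, a 60S protein gene on the X chromosome, gave an example: it was at 644, 480 and 423 CPM in sgControl and at 542 and 503 CPM in sgMef2d libraries. Rps27, a zinc-binding 40S protein, was at 521, 433 and 357 CPM against 529 and 472 CPM. In both genes the sgMef2d libraries lay above sgControl replicates 2 and 3 and overlapped sgControl replicate 1 or fell below it. The median difference in log2 CPM between sgControl replicate 1 and the mean of replicates 2 and 3 was 0.21 over the ribosomal protein genes and -0.00014 over all genes tested. Over the 14 genes past the threshold it was 0.017, while the median absolute difference between sgControl replicates 2 and 3 was 0.15. Both sgMef2d libraries lay above sgControl replicate 1 for 34 ribosomal protein genes and below it for 40 (40.3% and 41% of all genes tested).

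Against sgControl replicates 2 and 3 alone, both sgMef2d libraries were higher for 80 of 81 genes (31.3% of all genes tested), the exception being Rpl22l1, and the median difference in log2 CPM was 0.22. Without sgControl replicate 1, 77 of 81 passed the threshold by edgeR, all higher, where 14.6% of all genes tested were higher and 14.8% lower. The 4 others were Rpl26, Rpl22, Rps3a1 and Rpl22l1. With sgControl replicate 1 as the only control library, 21 genes were higher and 22 lower past the threshold (12.2% and 10.9% of all genes tested), and the median log2 fold change was -0.028. The spread of this fit rests on the 2 sgMef2d libraries, and the lone control is assumed to vary like them. The genes lower in that fit included Rpl22l1 (log2 fold change -0.37), Rpl36a (-0.30), Rpl13a (-0.29), Rpl15 (-0.25) and Rpl7 (-0.20). The 14 genes past the threshold with all 5 libraries were higher and past it in both of these fits, which share the sgMef2d libraries, but passing with all 5 libraries already favoured genes in which no sgControl library was high.

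**Figure D4:**
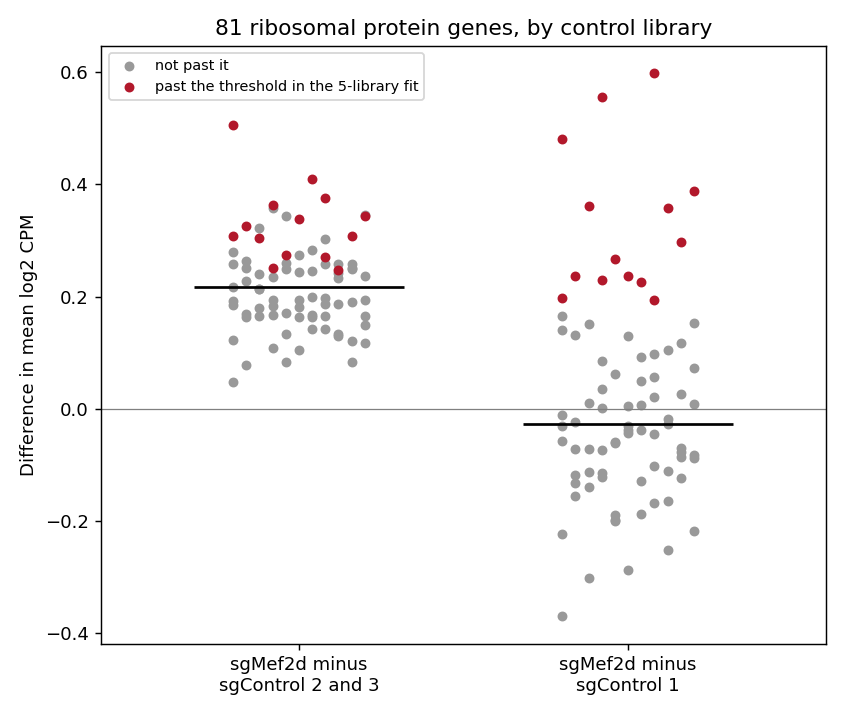
Difference between sgMef2d and sgControl by control library. Each point is 1 of the 81 ribosomal protein genes (horizontal spread only separates points), the y axis is the difference in mean log2 CPM between the 2 sgMef2d libraries and the control named below, the black line is the median, and red points passed the threshold with all 5 libraries. Against sgControl replicates 2 and 3 the median is 0.22 and against replicate 1 it is -0.028, while the red points lie above 0 on both sides.

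At the other end of the order were genes whose sgMef2d values lay within the sgControl range. Rpl22l1, the paralog of Rpl22, was at 361, 279 and 262 CPM in sgControl and at 284 and 274 CPM in sgMef2d libraries, with a log2 fold change of -0.11 ± 0.11 (SE, adjusted p = 0.614). Rpl7, a 60S protein gene, was at 2543, 2112 and 2066 CPM against 2238 and 2191 CPM, a log2 fold change of -0.017 ± 0.088 (SE). Rpl15 was at 679, 521 and 522 CPM against 576 and 565 CPM, a log2 fold change of -0.0094 ± 0.10 (SE). In all 3 of these 60S genes sgControl replicate 1 was the highest library. Rpl13a, a 60S protein known for a role in the translational silencing of inflammatory transcripts, was at 440, 312 and 324 CPM in sgControl and at 364 and 357 CPM in sgMef2d cells. Its log2 fold change was 0.0063 ± 0.12 (SE, adjusted p = 0.983 by edgeR). Rps3a1, a 40S protein, was at 1490, 1283 and 1291 CPM against 1362 and 1357 CPM (log2 fold change 0.0047 ± 0.074 SE). Over the 81 genes the sgMef2d libraries were close to each other, with a median absolute difference of 0.028 in log2 CPM, against 0.089 between sgControl replicates 2 and 3.

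Some of the proteins also have a role beyond the ribosome. Rpsa, also known as a laminin receptor, was at 2362, 2087 and 2010 CPM in sgControl and at 2246 and 2356 CPM in sgMef2d libraries (log2 fold change 0.096 ± 0.077 SE, adjusted p = 0.504). Rps27a, which is made as a fusion to ubiquitin, was at 919, 790 and 728 CPM against 922 and 892 CPM (0.16 ± 0.086 SE, adjusted p = 0.301). Rps6, the target of the S6 kinases, was at 2007, 1718 and 1762 CPM against 1825 and 1862 CPM (0.011 ± 0.075 SE, adjusted p = 0.950). In these 3 genes sgControl replicate 1 was the highest library or lay between the sgMef2d libraries, and none passed the threshold.

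Levels per length spanned a wide range, although most of the proteins are needed in nearly equal numbers. As mean CPM over the 5 libraries per kilobase of annotated exon, Rplp1 was highest at 2782, followed by Rpl36 (1441), Rps3a1 (1388), Rpl23a (1225) and Rps15 (1173). With the longest transcript as the length Rplp1 was still first, but Rpl23a, Rps6, Rpl8 and Rpl19 came next, and Rpl36, Rps3a1 and Rps15 fell to ranks 9, 11 and 14. The lowest were Rpl26 (20.2), Rpl35a (27.2), Rpl22 (42.6), Rpl36al and Rpl7l1 (70.2), the last of which is a relative of Rpl7 that the name rule takes in. With the longest transcript as the length Rpl35a (33.6) was below Rpl26 (44.4), and Rpl30 (90.1) was below Rpl7l1 (94.2). Rpl26 was measured at 27.6, 29.4 and 27.3 CPM in sgControl and 29.7 and 31.9 CPM in sgMef2d libraries, although it encodes a standard 60S protein. Of the 50-base words of its transcripts, 22.7% occur in other genes, 12 in number, and the treatment of reads that match several places is not stated. Ribosomal protein genes have many processed pseudogenes: the median share of such words was 20.9%, and 1 of the 81 genes shared none. Levels per length are therefore uncertain for these genes, and they also depend on which annotated length is taken. Pseudogenes named after ribosomal protein genes took 1251 to 1476 CPM in sum per library, and of the 21 tested, 0 passed the threshold by edgeR, DESeq2 or limma-voom (7.95% of all genes tested by edgeR). At an unadjusted p below 0.05 by edgeR 3 were higher (11.2% of all genes tested) and 0 lower (12%). The pseudogenes had a median log2 fold change of 0.12, against 0.13 for the ribosomal protein genes. Their median difference in log2 CPM between sgControl replicate 1 and replicates 2 and 3 was 0.17, against 0.21.

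Some ribosomal proteins have a paralog that can take their place. Rpl22l1, the paralog of Rpl22, stood at 181, 140 and 131 CPM per kilobase of exon in the sgControl libraries and at 143 and 138 in the sgMef2d libraries, where Rpl22 stood at 46.9, 40.5 and 39.4 and at 43.4 and 42.8, so the paralog had the higher level per length in all 5. The ratio of their CPM was 264%, 237% and 228% in sgControl and 225% and 220% in sgMef2d libraries, highest in sgControl replicate 1. Rpl22 itself was at 136, 118 and 115 CPM against 126 and 125 CPM. The CPM of Rps27l, a paralog induced by p53, was 44.6%, 44.6% and 49.0% of that of Rps27 in sgControl and 44.7% and 49.0% in sgMef2d libraries. Rps27l was at 232, 193 and 175 CPM against 237 and 231 CPM, a log2 fold change of 0.22 ± 0.096 (SE, adjusted p = 0.196). The CPM of Rpl36al was 14.4% to 17.0% of that of Rpl36a. For Rps27l and Rpl36al these ratios overlapped between the groups, whereas those of Rpl22l1 were lower in both sgMef2d than in all 3 sgControl libraries. The CPM of Rpl7l1 was 11.2% or less of that of Rpl7 in sgControl and 11.2% and 11.7% in sgMef2d libraries. Of the parent genes whose paralogs were not listed, Rpl3 was at 946, 920 and 879 CPM against 981 and 993 CPM, Rpl10 at 1366, 1156 and 1172 CPM against 1335 and 1314 CPM, and Rpl39 at 434, 406 and 339 CPM against 444 and 439 CPM. The X-linked Rps4x was at 1551, 1418 and 1383 CPM against 1512 and 1501 CPM. None of these parents passed the threshold.

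The ribosomal protein genes are short, and their length moved with the difference between sgMef2d and sgControl. Their longest annotated transcript had a median of 1106 bases, against 3326 bases over all genes tested. It was 848 bases in the 14 genes past the threshold and 1151 bases in the 67 others, and over the 81 genes Spearman's rho between length and log2 fold change was -0.34, while between length and the difference of sgControl replicate 1 from replicates 2 and 3 it was 0.0937 (all values from the same 5 libraries). Other short genes were shifted in the same direction. The 386 other protein-coding genes with a longest transcript under 1000 bases had a median difference of 0.22 in log2 CPM between sgControl replicate 1 and replicates 2 and 3, and of 0.18 between sgMef2d and replicates 2 and 3. In the 8094 other protein-coding genes of 2500 bases or more these medians were -0.041 and -0.027. The 10 ribosomal protein genes of that length had medians of 0.21 and 0.19. The longest annotated transcript need not be the one expressed in EpH4 cells, so these genes need not have long mRNAs. With each library's trend in length and GC content removed, 13 ribosomal protein genes passed the threshold, 10 of the 14 among them. All 13 were higher, where 6.35% of all genes tested were higher and 6.29% lower. The log2 fold change was then above 0 for 61 of the 81 genes (51.2% of all genes tested), its median was 0.055, and Rps29, Rpl28, Rps21 and Rpl27 no longer passed (adjusted p between 0.0648 and 0.105 by edgeR), with log2 fold changes of 0.11 to 0.27 against 0.24 to 0.41 before. The 10 that still passed had 56.1% to 109% of their log2 fold change, with Rplp2 at 0.19 and Rpl41 at 0.17. The removal used the same annotated lengths, so its size depends on the annotation. The log2 fold change of Rpl30 (2412 bases) went from 0.29 to 0.32, and that of Rpl36 (383 bases) from 0.22 to 0.027. The part of transcript length in the result was not tested.

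**Figure D5:**
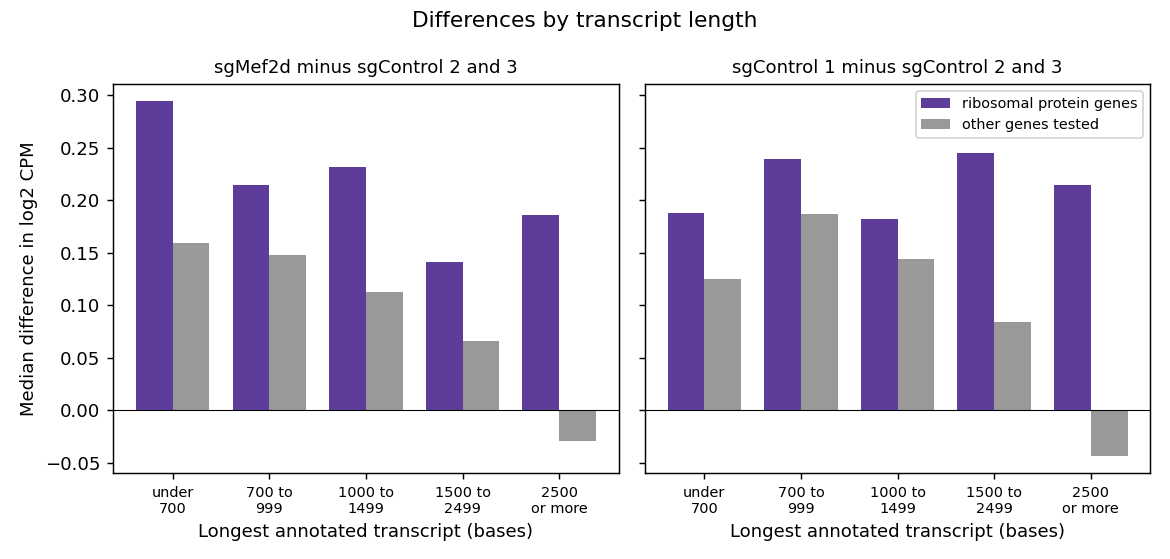
Differences by length of the longest annotated transcript. Bars are the median difference in log2 CPM between sgMef2d and sgControl replicates 2 and 3 (left) and between sgControl replicate 1 and replicates 2 and 3 (right), for ribosomal protein genes (purple; 16, 18, 22, 15 and 10 genes from the shortest to the longest class) and all other genes tested (grey). From the second class on, grey bars fall with length and lie below 0 at 2500 bases or more, while the purple bars stay above 0 in each class, although 4 of these 5 classes hold fewer than 20 genes. The longest annotated transcript need not be the one expressed.

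The genes that carry snoRNAs in their introns were counted apart. Of the 81 genes, 30 hold an annotated snoRNA, and 6 of them passed the threshold, with a median log2 fold change of 0.11. Of the 51 without one, 8 passed it, with a median of 0.13. All of these calls were higher in sgMef2d cells, where 17.3% of the 81 genes and 3.67% of all genes tested were higher past the threshold. Counts of the spliced mRNA do not measure the snoRNAs themselves.

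Genes that work with the ribosomal proteins were described by lists. Of ribosome genes outside the name rule, Fau encodes a ubiquitin-like fusion of a 40S protein, and Rack1 encodes a signalling scaffold on the 40S subunit. Fau was at 555, 467 and 441 CPM in sgControl and at 532 and 538 CPM in sgMef2d libraries (log2 fold change 0.13 ± 0.086 SE, adjusted p = 0.395). Rack1 was at 1483, 1297 and 1206 CPM against 1405 and 1421 CPM (0.089 ± 0.082 SE, adjusted p = 0.565). In both genes sgControl replicate 1 was the highest library. Neither passed the threshold with all 5 libraries by edgeR, and both were higher past it without sgControl replicate 1.

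Of 21 other genes with TOP mRNAs, most of them translation factors, 3 passed the threshold, all higher (3.67% of all genes tested), and the median log2 fold change was 0.080. Eef1d, a subunit of the exchange factor of elongation factor 1, was at 390, 359 and 360 CPM against 438 and 452 CPM (log2 fold change 0.27 ± 0.060 SE, adjusted p = 0.0201). Eif3l, a subunit of initiation factor 3, was at 275, 267 and 273 CPM against 319 and 310 CPM (0.21 ± 0.054 SE, adjusted p = 0.0354). The third, Vim, encodes the intermediate filament vimentin, which is not a translation factor, and rose from 10.8, 13.0 and 11.9 CPM to 34.1 and 37.4 CPM. Without sgControl replicate 1, 13 of the 21 were higher and 0 lower, where 14.6% of all genes tested were higher and 14.8% lower.

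The lists of regulators were counted against the 7.95% of all genes tested that passed the threshold in either direction. Of 9 snoRNA host lncRNAs tested, of 12 in the list, 0 passed the threshold by edgeR, DESeq2 or limma-voom (1 at an unadjusted p below 0.05 by edgeR), and the smallest p was that of Snhg15 (log2 fold change 0.33 ± 0.11 SE, adjusted p = 0.0906 by edgeR). Of 20 genes of mTOR, LARP1 and S6 kinase regulation, 0 passed it by any of these tools (at an unadjusted p below 0.05 by edgeR, 2 were higher and 3 lower), and the smallest p was that of Sesn2, an inhibitor of mTORC1 under amino acid shortage (0.38 ± 0.12 SE, adjusted p = 0.0759 by edgeR). Of 13 listed factors that act on ribosomal protein promoters, Myc was the only one past the threshold. Myc, a transcription factor that drives ribosome production, was at 180, 191 and 191 CPM in sgControl and at 237 and 225 CPM in sgMef2d libraries, a log2 fold change of 0.30 ± 0.059 (SE, adjusted p = 0.00885 by edgeR). The sgControl values of Myc lay close together, with replicate 1 the lowest. Without sgControl replicate 1, the counts higher and lower were 3 and 0 for the snoRNA hosts, 4 and 3 for the mTOR list and 2 and 2 for the promoter factors, where 14.6% of all genes tested were higher and 14.8% lower.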

How the data were processed

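The 5 libraries (3 sgControl, 2 sgMef2d) were made from poly(A) RNA of EpH4 cells with a kit that marks strand. Per the submitters' processing notes, CASAVA, FASTQC 0.10.1, STAR, Subread and GRCm38 were used. The authors deposited raw counts per gene, not normalized, after removing genes with low counts: every listed gene reached at least 11 counts in some library. The methods give GENCODE version 22 while all 12934 identifiers matched M21, and the strand and multi-mapping settings of the counting are not given in the sources used here. All sample columns were used (0 unused).

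The deposited counts were tested with edgeR 4.0.16 in R 4.3.3 (TMM factors 0.996 to 1.00, filterByExpr by group, quasi-likelihood F-test with legacy = FALSE, group as the only term), and an adjusted p (Benjamini-Hochberg over 12483 genes) below 0.05 was the threshold. The biological coefficient of variation was 0.0607. Library totals were 13601145 counts or more, and PCR copies were not identified. CPM are TMM-scaled, log2 CPM use a prior count of 2, and differences between single libraries were taken without a test. Lengths, neighbours, snoRNAs and shared 50-base words came from GENCODE M21, and promoter windows from RefSeq on GRCm38.p6. The scripts were tested on simulated counts.

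The ribosomal protein genes, the paralog pairs and the gene lists were chosen with earlier results of these data known. Genes were named if past the threshold, if among the 5 highest or lowest in log2 fold change or in level per length, if in a paralog pair, as stalk, fusion or kinase target genes, or, in each list, if past the threshold or with the smallest p. Alternatives were other scalings, no filter, the legacy form, DESeq2 1.42.0, limma-voom (limma 3.58.1), removal of the trend with length and GC content (loess span 0.3), a replicate block, each library left out, and sgControl replicate 1 as the only control. Genome and protein sequences were not used here, and some genes are not reported here.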

Additional observations from a re-analysis of the deposited data

How the results depend on the processing

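The count of 14 ribosomal protein genes past the threshold came to 13 or 14 under the other scalings, without the filter, in the legacy form, with DESeq2 or limma-voom and with the trend in length and GC content removed. With 1 library left out it ranged from 0 to 77. With sgControl replicate 1 as the only control it was 43, of which 22 were lower, and the median log2 fold change was -0.028. In all of these fits the 14 genes had log2 fold changes above 0. With the replicate number as a block 9 passed, where 4.74% of all genes tested were higher, the median log2 fold change was 0.072, and 65 of 81 genes were above 0. Rpl27, Rpl30, Rpl41, Rps13 and Rps21 did not (adjusted p between 0.0528 and 0.112 by edgeR), with log2 fold changes 76.7% to 91.4% of those without the block. The labels share numbers for 2 pairs only, so under the block sgControl replicate 3 adds nothing to the difference between the groups. The log2 fold change of Rpl38 was 0.42 both under the block and without sgControl replicate 3. The deviations of same-numbered libraries from their group means correlated at 0.011 for number 1 and -0.00092 for number 2 over genes, so the numbers were not taken as pairs. Eif3l also lost its call under the block (adjusted p = 0.0764).

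Ribosomal protein genes whose direction turned had not passed the threshold with all 5 libraries, and the cause was not tested. From above to below 0 went 41 with sgControl replicate 1 as the only control (37 of 81 were above 0), 17 with the trend removed and 13 with the replicate block. The values that follow are for the genes chosen by the naming rule alone, list genes included. With sgControl replicate 1 as the only control the log2 fold changes were Fau -0.054, Rack1 -0.069, Rpl10 -0.045, Rpl13a -0.29, Rpl22 -0.12, Rpl23a -0.082, Rpl36a -0.30, Rpl36al -0.19, Rpl7l1 -0.011, Rplp0 -0.031, Rplp1 -0.13, Rps15 -0.085, Rps27 -0.058, Rps27a -0.018, Rps3a1 -0.13, Rps4x -0.042, Rps6 -0.12 and Rpsa -0.038. With the trend removed they were Fau -0.0056, Rpl13a -0.086, Rpl22 -0.0064, Rpl23a -0.013, Rpl26 -0.0071, Rpl36a -0.062, Rplp1 -0.096, Rps15 -0.035, Rps3a1 -0.070, Rps4x -0.023 and Rps6 -0.095. With the replicate block they were Rpl13a -0.041, Rpl22 -0.018, Rpl36a -0.091, Rplp1 -0.011, Rps3a1 -0.025 and Rps6 -0.011, without scaling factors Rpl13a -0.0011 and Rps3a1 -0.0028, and with limma-voom Rpl15 0.0014. With 1 library left out, Rpl13a went from -0.084 to 0.18, Rpl15 went from -0.074 to 0.13, Rpl22 went from -0.022 to 0.11, Rpl22l1 went from -0.20 to 0.047, Rpl36a went from -0.11 to 0.21, Rpl36al went from -0.0081 to 0.25, Rpl7 went from -0.072 to 0.084, Rplp1 went from -0.016 to 0.16, Rps3a1 went from -0.033 to 0.078 and Rps6 went from -0.032 to 0.083.

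Depth bears on low values such as those of Rpl26, which had 373 to 567 counts per library. The level per length moved when the longest transcript was taken as the length: Rpl26 then had 44.4, Rpl35a 33.6, Rpl22 60.5, Rpl7l1 94.2 and Rpl23a 1765 CPM per kilobase. Without the 100 most abundant other genes in the total, the share of counts was 7.24% in sgControl and 7.89% in sgMef2d cells. Of the genes in other lists, Vim kept its call without each single library, whereas the calls of Eef1d, Eif3l and Myc were lost without sgMef2d replicate 1 (adjusted p 0.178, 0.353 and 0.192) and without sgMef2d replicate 2 (0.298, 0.281 and 0.0902). Their log2 fold changes were then 0.28, 0.19 and 0.26 without the first and 0.24, 0.23 and 0.34 without the second, against 0.27, 0.21 and 0.30 with all 5 libraries. Eef1d and Eif3l also lost their calls without sgControl replicate 2 (adjusted p 0.108 and 0.162 by edgeR, log2 fold changes 0.25 and 0.20). The same held without sgControl replicate 3 (adjusted p 0.0553 and 0.0775 by edgeR, log2 fold changes 0.25 and 0.22). Myc kept its call in both of these fits.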
